A study of Mus musculus with 24 samples.

Results

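The liver makes new fatty acids from sugar through a short chain of enzymes, and the 10 genes described here are its core in the mouse: the transcription factor genes Srebf1 and Mlxipl, the enzyme genes Acly, Acaca, Acacb, Fasn, Scd1, Elovl6 and Me1, and the cofactor gene Thrsp. They were chosen by symbol from the 56205 genes of a count table made by RNA-Seq of whole liver. All 10 passed the filter on low counts, and none had fewer than 693 counts in any library. The livers came from C57BL/6J mice, which carry no engineered allele. For 12 libraries the mice were kept for 20 weeks on a high-fat diet, described in the study's methods as rich in palm oil, fructose and cholesterol, and for the other 12 they were kept for 20 weeks on its control diet. The methods give an age of 8 to 10 weeks at the start of the diet. The labels number the libraries from 1 to 12 within each diet without stating that each is a separate mouse, so the p-values measure the spread between these libraries. The question is how lipogenic transcripts differ between livers on the high-fat and the control diet.

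The 12 high-fat diet libraries held between 16490817 and 21213070 counts each, and the 12 control libraries between 14468418 and 22112552. The libraries also fell into 2 sets that the labels do not name. Xist, an X-chromosome transcript, had 2664 to 6285 counts in replicates 1 to 6 of both diets and 0 to 3 counts in replicates 7 to 12. The methods state that both sexes of C57BL/6J mice were used, but the labels give no sex for a library. Values are therefore given for all 24 libraries, for the 12 Xist-high libraries and for the 12 Xist-low libraries, with 6 libraries per diet in each set. The sets are not conditions of the study. Among the Xist-low libraries, 1 of each diet stood apart. High-fat diet replicate 9 had the highest TMM factor of all 24 (1.34) and the highest cholangiocyte markers, with Krt19 at 48.1 CPM where no other Xist-low high-fat library exceeded 7.57. Control replicate 10 had the lowest total and the lowest TMM factor (0.679), and its Asgr1, a hepatocyte gene, was at 2173 CPM where no other Xist-low control library exceeded 629. Their part in the results of that set was not tested beyond leaving each of them out. The tissue label was checked against 8 hepatocyte genes (Alb, Apoa1, Ttr, Tf, Serpina1c, Cps1, Hnf4a and Asgr1), which summed to between 51808 and 150819 CPM (counts scaled to a common library total with TMM factors). Of 6 adipocyte markers, Lep was at 0 in every library, Adipoq, Retn, Plin1 and Slc7a10 had at most 7 counts, and Cfd did not pass the test.

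In de novo lipogenesis, citrate exported from mitochondria is split by ATP citrate lyase (Acly) into acetyl-CoA, which the acetyl-CoA carboxylases (Acaca, Acacb) turn into malonyl-CoA. Fatty acid synthase (Fasn) builds palmitate from these with NADPH, part of which comes from malic enzyme (Me1), and ELOVL6 and SCD1 then lengthen and desaturate the product. SREBP-1c, from Srebf1, drives these genes in response to insulin and is itself induced through the oxysterol receptor LXR, while ChREBP, from Mlxipl, drives them in response to sugar. Malonyl-CoA made by ACACB at mitochondria also restrains fatty acid oxidation.

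The promoters show which letters of known regulatory elements these genes hold near their starts. RefSeq windows on GRCm38.p6, from 250 bases before to 50 bases after a start, were found for 9 of the 10 genes (not Scd1), in 13 windows. Both strands were searched for TCACCC, a sterol regulatory element core, for CCAAT, the NF-Y box, for CACGTG, an E-box, and for the half-sites GGTTA and GGTCA, in this order on the same strand with 5 bases between them, a direct repeat of the kind that LXR binds. The repeat was in 2 of the 13 windows, 1 each of Srebf1 and Fasn, and in 0.0487% of all 32851 windows of this length. Only this spelling of the repeat was searched, and whether it was drawn from known sites in these genes is not recorded. The share therefore does not measure how unusual the matches are. TCACCC was in 3 of the 13 windows, from 3 genes, where 16.2% of all windows held it. CCAAT was in 8 of the 13, from 7 genes (37.4% of all windows), and CACGTG in 1, of Mlxipl (7.15%). Shown are the window at the most downstream of the 3 Srebf1 starts, chr11:60210422-60210721, and those of Fasn, chr11:120824498-120824797, Acly, chr11:100527951-100528250, and Thrsp, chr7:97417501-97417800. Srebf1 and Fasn are shown for the repeat, and Acly and Thrsp because their levels parted from that of Fasn in the results. All 4 are on the minus strand and are written 5′ to 3′ along the gene, with matched letters in capitals. In Fasn a CCAAT box and another on the opposite strand overlap. A match describes the letters alone, and the data hold no measurement of binding.
Srebf1: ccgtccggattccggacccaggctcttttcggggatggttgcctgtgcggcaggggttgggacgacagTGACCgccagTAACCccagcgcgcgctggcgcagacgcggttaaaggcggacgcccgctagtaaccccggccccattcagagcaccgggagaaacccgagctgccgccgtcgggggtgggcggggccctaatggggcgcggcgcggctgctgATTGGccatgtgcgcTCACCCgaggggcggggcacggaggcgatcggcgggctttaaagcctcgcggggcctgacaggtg
Fasn: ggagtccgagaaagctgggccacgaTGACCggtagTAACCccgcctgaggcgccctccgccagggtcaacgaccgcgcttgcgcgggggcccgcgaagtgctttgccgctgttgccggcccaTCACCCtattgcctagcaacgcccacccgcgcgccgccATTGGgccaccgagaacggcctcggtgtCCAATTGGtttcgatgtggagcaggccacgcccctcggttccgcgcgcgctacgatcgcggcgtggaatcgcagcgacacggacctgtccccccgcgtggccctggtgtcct
Acly: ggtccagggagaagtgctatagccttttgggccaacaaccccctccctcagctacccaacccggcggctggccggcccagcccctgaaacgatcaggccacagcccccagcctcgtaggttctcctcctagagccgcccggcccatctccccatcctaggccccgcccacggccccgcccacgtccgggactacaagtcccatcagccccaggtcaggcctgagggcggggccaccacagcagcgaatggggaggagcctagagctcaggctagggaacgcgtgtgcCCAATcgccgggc
Thrsp: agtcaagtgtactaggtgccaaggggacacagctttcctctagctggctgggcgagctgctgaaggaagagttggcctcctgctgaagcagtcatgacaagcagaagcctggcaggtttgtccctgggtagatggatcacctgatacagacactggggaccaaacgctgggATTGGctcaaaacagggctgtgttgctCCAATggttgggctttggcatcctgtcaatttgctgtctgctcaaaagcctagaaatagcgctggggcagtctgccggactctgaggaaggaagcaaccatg

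Per kilobase of exon, Scd1, which makes oleate from stearate, was the most abundant of the 10 transcripts, at 3331 ± 1638 CPM per kilobase (SD, n = 12) in control livers. Thrsp, the cofactor gene, followed at 257 ± 101 CPM per kilobase. Me1 at 83.8 ± 31.8, Srebf1 at 80.1 ± 27.3, Fasn at 62.1 ± 27.4, Acly at 51.9 ± 20.9 and Mlxipl at 51.2 ± 8.26 each lay within 1 SD of the next in this order. Acacb at 29.0 ± 10.4 and Elovl6 at 26.4 ± 8.87 also lay within 1 SD of each other, and Acaca was lowest at 10.8 ± 3.39 CPM per kilobase. On the high-fat diet Scd1 was again highest, at 4887 ± 1988, and Acaca lowest, at 8.64 ± 3.23 CPM per kilobase. Exon lengths were those of GENCODE M21, which may differ from the annotation used for counting.

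Across all 24 libraries, no lipogenesis gene was called higher or lower on the high-fat diet. The call required an absolute log2 fold change over 0.5 and an adjusted p no higher than 0.01 (quasi-likelihood test of edgeR, Benjamini-Hochberg adjustment over all 17913 genes tested). Of all genes tested, 13.2% were called higher and 4.99% lower. Of the 10 genes, 5 had an unadjusted p under 0.05, all lower, where 4253 of the 17913 genes tested were lower at that p. With an adjusted p up to 0.05 and no threshold of fold change, 4 of the 10 were lower (Acly, Acacb, Me1 and Thrsp) and none was higher, where 18.9% of all genes were lower. The log2 fold change was below 0 for 8 of the 10 genes, with a median of -0.43 against -0.03 over all genes tested. The exceptions were Srebf1, at 0.38 (standard error 0.19), and Scd1, at 0.55 (standard error 0.27). In each gene the values of the diets overlapped. High-fat diet replicate 4 held the highest level of the 12 high-fat libraries for 8 of the 10 genes, and without it 4 genes were called lower (Acly, Acacb, Elovl6 and Thrsp). Without replicate 5 of the high-fat diet 2 were called lower (Acacb and Thrsp), and without its replicate 2, Acacb alone. Adding the set as a covariate gave 1 gene called lower, Acacb, and DESeq2 and limma-voom each called 2 genes lower, Acly and Acacb.

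**Figure D1:**
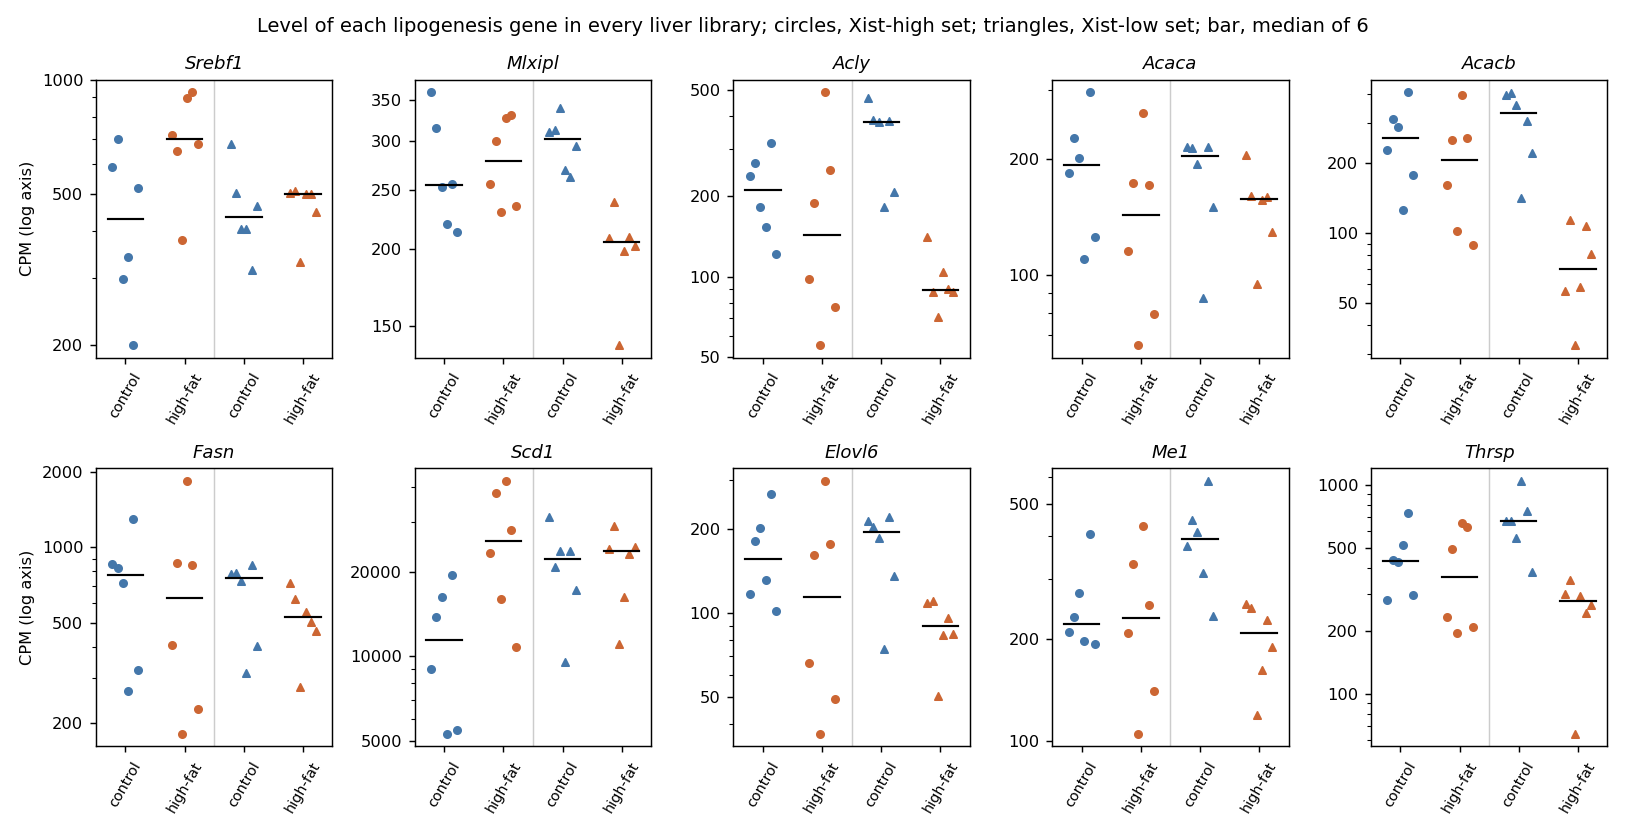
Level of each of the 10 genes in CPM (vertical log axis) in every liver library, by diet and set, with 6 libraries per column; circles are Xist-high and triangles Xist-low libraries, and bars are medians. In the Xist-low libraries the diets do not overlap for Mlxipl, Acly, Acacb and Thrsp, while in the Xist-high libraries they overlap for all 10 genes.

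In the 12 Xist-low libraries, 6 of the 10 genes were called lower on the high-fat diet (Mlxipl, Acly, Acacb, Elovl6, Me1 and Thrsp) and none was called higher, where 7.89% of the 18122 genes tested were called lower and 14.3% higher. The values of the diets did not overlap for 4 of the 10 genes, and 9.66% of all genes were lower without overlap. Srebf1, Acaca, Fasn and Scd1 did not pass the test in this set. In the 12 Xist-high libraries none of the 10 genes was called in either direction by edgeR, DESeq2 or limma-voom, and 2 had an unadjusted p under 0.05 by edgeR, both higher. Of the 18071 genes tested in that set, 2.82% were called higher and 0.979% lower, and 2670 were higher at an unadjusted p under 0.05. The median log2 fold change of the 10 genes was -0.75 in the Xist-low and -0.10 in the Xist-high libraries. Without high-fat diet replicate 9, which held the lowest level of all 10 genes among the 6 Xist-low high-fat libraries, 4 genes were called lower in that set, Mlxipl and Elovl6 being lost. Without control replicate 10, which held the lowest control level of 6 of the 10 genes there, 6 were called lower. With library totals in place of TMM scaling, 2 were, Acly and Acacb.

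Whether the diet effect differed between the sets was tested with an interaction term over all 24 libraries. With an adjusted p up to 0.01 none of the 10 genes passed (edgeR), where 4.06% of all genes did. An unadjusted p under 0.05 was found for 6, all with the lower fold change in the Xist-low set. Of all 17913 genes tested, 1943 had such a p with the lower fold change in that set, and 2345 with the higher. DESeq2 passed 1 gene, Acacb, and limma-voom none. With an adjusted p up to 0.05, 3 passed in edgeR, where 10.2% of all genes did. These were Acacb, with a difference in log2 fold change of -1.73 (standard error 0.49, edgeR's adjusted p = 0.0240), Acly, with -1.64 (standard error 0.53, edgeR's adjusted p = 0.0474), and Mlxipl, with -0.63 (standard error 0.19, edgeR's adjusted p = 0.0365). For 9 of the 10 genes the log2 fold change was lower in the Xist-low set, with Acaca as the exception, where 9422 of all 17913 genes were lower there. A difference that missed the threshold does not show that the sets responded alike.

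**Figure D2:**
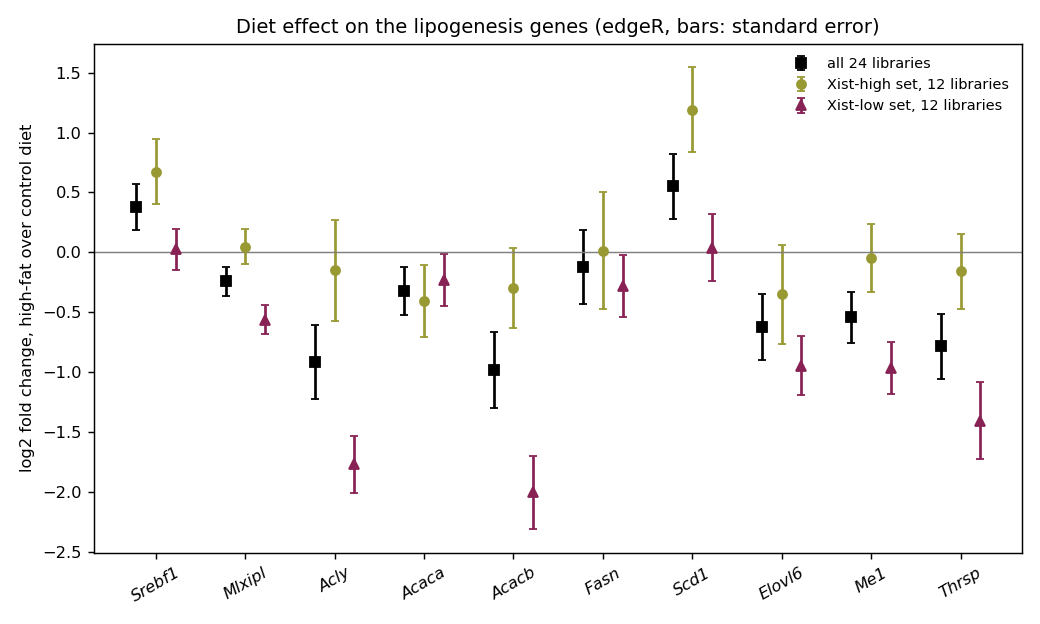
Log2 fold change of the 10 genes, high-fat over control diet, with standard errors, in all 24 libraries, the 12 Xist-high and the 12 Xist-low libraries. In the Xist-low set Acacb and Acly lie lowest, at -2.001 and -1.77, while Srebf1 and Scd1 lie at 0.03 and 0.04.

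Markers of cell types moved in the same libraries. In the Xist-low set, 5 of the 8 hepatocyte markers were called lower, with a median log2 fold change of -0.98, and their summed level ran from 100655 to 118513 CPM on the control diet and from 51808 to 68310 on the high-fat diet. Alb was the largest part of each sum there, at 49085 to 68960 CPM on the control and 24220 to 35182 on the high-fat diet. Tf overlapped between the diets, at 16085 to 18373 and 14721 to 20734 CPM. The Xist-high set had 2 of 8 lower with a median of -0.44, and sums of 116508 to 150819 CPM on the control and 87657 to 134603 on the high-fat diet. Of 6 macrophage markers (Adgre1, Cd68, Csf1r, Clec4f, Itgam and Lyz2), 5 rose in the Xist-low set, with sums of 134 to 256 CPM on the control and 458 to 1028 on the high-fat diet. In the Xist-high set 1 rose, Cd68, with sums of 266 to 548 and 549.9 to 620.3 CPM. Of 6 markers of stellate cells or fibroblasts, 4 rose in the Xist-low and 3 in the Xist-high set, of 4 cholangiocyte markers 3 and 0, of 4 T and B cell markers 3 and 0, and of 4 endothelial markers 2 and 0. The Xist-high set leaned the same way for several lists at an unadjusted p under 0.05, where 7 of 8 hepatocyte markers were lower and 5 of 6 macrophage, 5 of 6 stellate and 3 of 4 cholangiocyte markers were higher. Its T and B cell markers did not, with 3 of 4 log2 fold changes below 0 (median -0.46, against 1.72 in the Xist-low set), though 1 was higher at that p. Of its 4 endothelial markers, 1 was higher and 1 lower at that p, where 2670 and 2457 of all 18071 genes were. The difference between the sets itself passed at an adjusted p up to 0.01 (edgeR) for 3 macrophage, 2 T and B cell, 1 cholangiocyte and 1 hepatocyte marker, and for none of the stellate or endothelial markers (2 of each at an unadjusted p under 0.05). Of all genes, 4.06% passed at that adjusted p. In whole liver, fewer hepatocytes and less of a transcript per hepatocyte cannot be told apart, and the part of cell makeup in the levels of the lipogenesis genes was not tested.

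The transcription factor genes differed in their values. Srebf1 (ENSMUSG00000020538, chr11:60199089-60222581 in GENCODE M21 on GRCm38) ranged in Xist-low libraries from 315 to 678 CPM on the control diet (median 435) and from 331 to 509 on the high-fat diet (median 499.8). Its log2 fold change there was 0.03 (standard error 0.17, edgeR's adjusted p = 0.922). In the Xist-high libraries it ranged from 199.97 to 698 CPM on the control diet (median 429) and from 377 to 927 on the high-fat diet (median 697). There 3 of the 6 high-fat values exceeded every control value, and the log2 fold change of 0.67 (standard error 0.27, edgeR's adjusted p = 0.110) did not pass the test. The counts sum over the isoforms SREBP-1a and SREBP-1c.

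Mlxipl (ENSMUSG00000005373, chr5:135089890-135138382), which encodes ChREBP, was lower in every Xist-low high-fat library than in any Xist-low control library, with 262 to 339 CPM on the control diet (median 302) and 139.9 to 239 on the high-fat diet (median 206). The log2 fold change was -0.56 (standard error 0.12, edgeR's adjusted p = 0.0028), and without high-fat replicate 9 it was -0.48, inside the fold threshold. The call was also lost when scaling used library totals alone and when only genes with 10 or more counts in each library were kept. In Xist-high libraries Mlxipl ranged from 213 to 359.7 CPM on the control diet and from 230.0 to 331 on the high-fat diet. The ranges lay almost on top of each other, and the log2 fold change was 0.05 (standard error 0.14, edgeR's adjusted p = 0.863).

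Among the enzymes that supply the building blocks, Acly and Acacb had the largest falls of the 10 genes in the Xist-low set. Acly (ENSMUSG00000020917, chr11:100476353-100528000) ranged from 182 to 467 CPM on the control diet (median 381) and from 70.6 to 141 on the high-fat diet (median 89.2). All 6 high-fat values lay under the lowest control value, and the log2 fold change was -1.77 (standard error 0.23, edgeR's adjusted p = 5.49e-05). Acacb (ENSMUSG00000042010, chr5:114146535-114250761) ranged from 142 to 403 CPM on the control diet (median 330.4) and from 32.8 to 114 on the high-fat diet (median 70.0), again without overlap. Its log2 fold change was -2.001 (standard error 0.31, edgeR's adjusted p = 0.000182). Acly and Acacb were called in all 12 fits that left out a Xist-low library in turn.

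Acaca (ENSMUSG00000020532, chr11:84129672-84401651), the cytosolic carboxylase that feeds fatty acid synthesis, overlapped between diets in the same Xist-low libraries, with 87.1 to 215 CPM on the control (median 203) and 94.9 to 204 on the high-fat diet (median 157). Its log2 fold change was -0.23 (standard error 0.22, edgeR's adjusted p = 0.426). In the Xist-high libraries these enzymes varied widely within a diet. Acly ranged there from 55.6 to 490.0 CPM on the high-fat diet (median 144), against 122 to 318 on the control diet (median 211). Acacb ranged from 88.7 to 392 CPM on the high-fat diet (median 207), against 125 to 405 on the control diet (median 257). The log2 fold changes of Acly, -0.15 (standard error 0.42), Acacb, -0.30 (standard error 0.33), and Acaca, -0.40 (standard error 0.30), did not pass the test there.

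Fasn (ENSMUSG00000025153, chr11:120805846-120824547), the synthase itself, did not pass the test in either set. In Xist-low libraries it ranged from 314 to 847 CPM on the control diet (median 757) and from 278 to 720.4 on the high-fat diet (median 528), and the log2 fold change was -0.28 (standard error 0.26, edgeR's adjusted p = 0.422). In Xist-high libraries the high-fat values, from 181 to 1834 CPM (median 627), spread beyond the control values, from 268 to 1298 CPM (median 774), at both ends. The highest high-fat library, replicate 4, was 10.2-fold above the lowest, replicate 3. The log2 fold change was 0.01 (standard error 0.49, edgeR's adjusted p = 0.990), and it was -0.49 without high-fat replicate 4 and 0.28 without control replicate 5, the highest library of each diet.

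Of the product-modifying enzymes, Scd1 leaned higher on the high-fat diet in the Xist-high libraries and Elovl6 fell in the Xist-low libraries. Scd1 (ENSMUSG00000037071, chr19:44394455-44407879) ranged in Xist-high libraries from 5297 to 19429.7 CPM on the control diet (median 11423) and from 10802 to 42082 on the high-fat diet (median 25724). Although 4 of the 6 high-fat values exceeded every control value, the log2 fold change of 1.19 (standard error 0.36, edgeR's adjusted p = 0.0365) missed the threshold of 0.01. In Xist-low libraries the medians were 22249.9 CPM on the control and 23661 on the high-fat diet, and the log2 fold change was 0.04 (standard error 0.28, edgeR's adjusted p = 0.929).

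Elovl6 (ENSMUSG00000041220, chr3:129532355-129638495), which lengthens palmitate to stearate, ranged in Xist-low libraries from 74.4 to 221 CPM on the control diet (median 195) and from 50.4 to 110.0 on the high-fat diet (median 90.0). Control replicate 10, the lowest control library, lay inside the high-fat range, and the log2 fold change was -0.94 (standard error 0.24, edgeR's adjusted p = 0.00721). The call was held in 4 of the 12 fits that left out a library in turn, in which edgeR's adjusted p reached 0.0189 (without control replicate 7).

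Me1 and Thrsp also fell in the Xist-low set. Me1 (ENSMUSG00000032418, chr9:86581371-86695953), the cytosolic malic enzyme, ranged from 233 to 583 CPM on the control diet (median 393) and from 119 to 252 on the high-fat diet (median 208). The lowest control library, replicate 12, lay under high-fat replicates 7 and 8, and the log2 fold change was -0.96 (standard error 0.22, edgeR's adjusted p = 0.00316). Thrsp (ENSMUSG00000035686, chr7:97412938-97417730), which encodes the thyroid hormone responsive protein Spot 14, ranged from 381 to 1039 CPM on the control diet (median 669.7) and from 64.4 to 349 on the high-fat diet (median 279), without overlap. Its log2 fold change was -1.40 (standard error 0.32, edgeR's adjusted p = 0.00331). Both genes were called in all 12 fits with a library left out, and neither was called with library totals alone. In the Xist-high set the log2 fold changes were -0.05 (standard error 0.28) for Me1 and -0.16 (standard error 0.31) for Thrsp, and neither passed the test.

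Because the levels rest on the scaling of the libraries, each gene was also set against Fasn by the ratio of counts within a library, which no scaling changes. This measure was chosen after the data were seen. Relative to Fasn, 5 of the 9 other genes were lower on the high-fat diet in the Xist-low libraries with no overlap between diets: Acly, Acacb, Elovl6, Me1 and Thrsp. Among 13917 genes compared in this way, 0.984% were lower without overlap. That share is not a like background, because most genes follow Fasn less closely from library to library than these do. Acly, Elovl6, Me1, Acacb and Thrsp ranked 3, 7, 13, 14 and 302 of 13916 genes by correlation with Fasn. How often genes of like correlation part from Fasn was not tested. For each of the 5 the exact permutation test, two-sided, gave p = 0.00216, the smallest that 6 libraries against 6 allow. Values without overlap always give this p, so it adds nothing to the lack of overlap. Acly had 0.453 to 0.598 counts per Fasn count on the control diet (median 0.516) and 0.142 to 0.254 on the high-fat diet (median 0.189), a ratio of geometric means of 0.360. Acacb had 0.359 to 0.547 counts per Fasn count on the control diet (median 0.496) and 0.0783 to 0.214 on the high-fat diet (median 0.146), a ratio of 0.291. For Thrsp, Me1 and Elovl6 the ratios of geometric means were 0.416, 0.612 and 0.638. Control replicate 10 had 3.30 Thrsp counts per Fasn count, where no other Xist-low control library exceeded 0.942. For Me1 it had 0.992, where none of the others exceeded 0.688, and for Elovl6 it was the lowest of them, at 0.237. The ratios were not computed without this library. Acaca kept near to Fasn, at a median of 0.273 counts per Fasn count on the control and 0.283 on the high-fat diet, with a ratio of geometric means of 1.03 (exact permutation p = 0.671).

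In the Xist-high libraries Scd1 alone of the 9 genes did not overlap between diets relative to Fasn, and it was higher. It had 10.5 to 22.6 counts per Fasn count on the control diet (median 16.8) and 23.0 to 88.9 on the high-fat diet (median 46.0). The ratio of geometric means was 2.73 (exact permutation p = 0.00216, again fixed by the lack of overlap). Of all genes, 0.0575% were higher in this way. Scd1 ranked 17 of 13916 genes by correlation with Fasn, so this share is likewise not that of genes that follow Fasn as closely. The 5 genes that parted from Fasn in the Xist-low set had ratios of geometric means between 0.747 (Elovl6) and 1.06 (Me1) here, with exact permutation p from 0.154 to 0.935. These values belong to a family of 18 comparisons, and each ratio also carries the spread of Fasn itself.

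**Figure D3:**
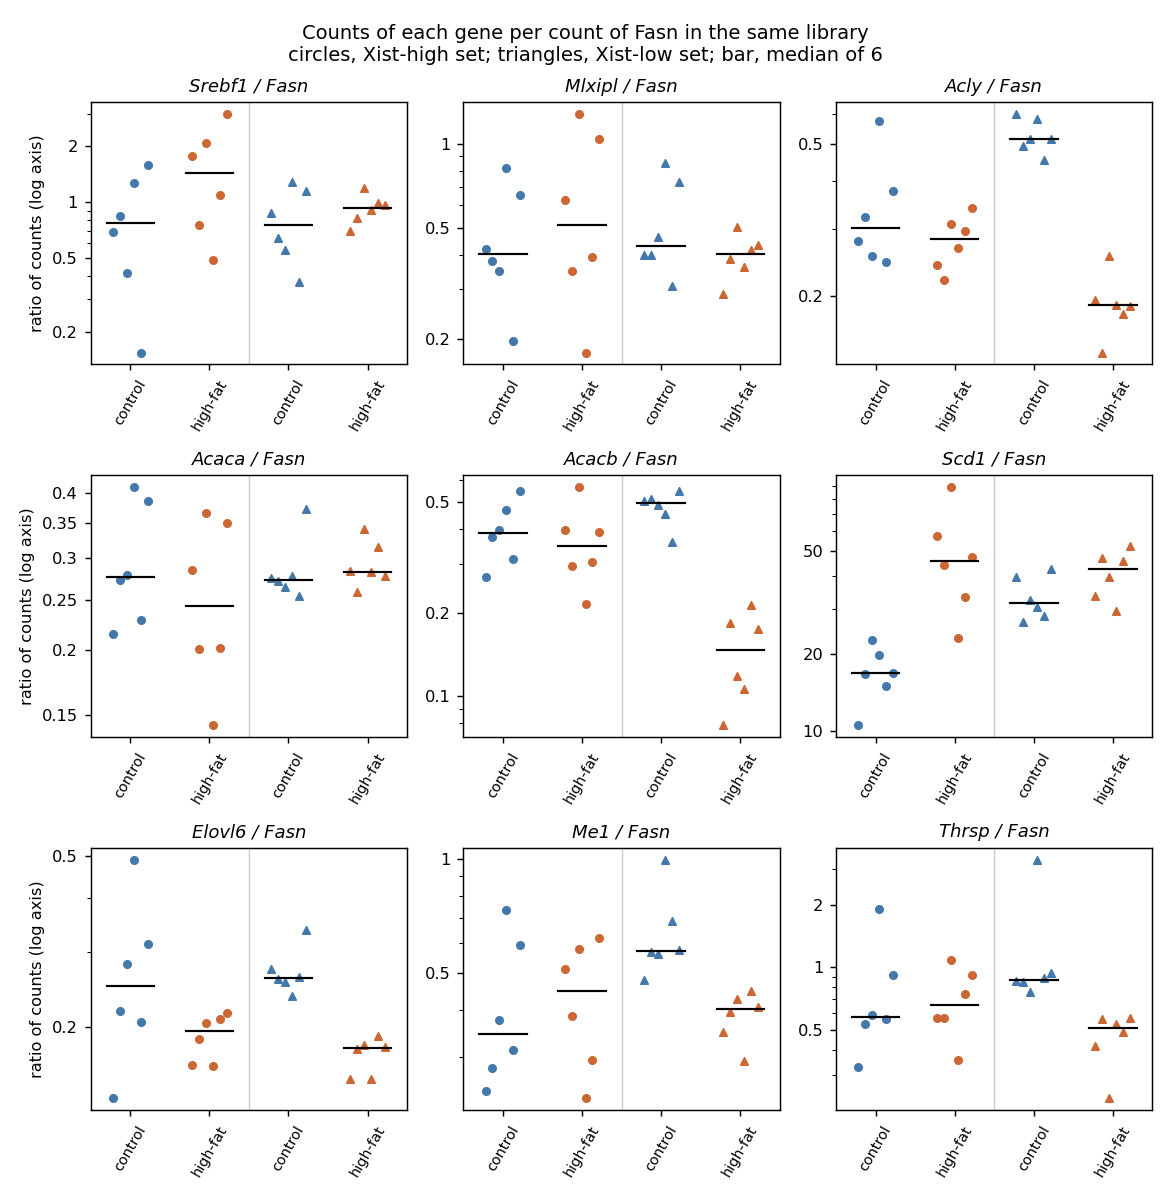
Counts of each gene per count of Fasn in the same library (vertical log axis), by diet and set, with 6 libraries per column and bars at the medians. Acly, Acacb, Elovl6, Me1 and Thrsp are lower without overlap in the Xist-low high-fat libraries, and Scd1 is higher without overlap in the Xist-high ones.

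Within a diet and set, most of the enzymes varied together from library to library. After the mean of each diet and set was subtracted from log2(CPM + 1), Acaca had the closest pattern to Fasn of 13916 genes ranked (Pearson's r = 0.97 over 24 libraries). Acly ranked 3 (r = 0.94), Elovl6 7 (r = 0.92), Me1 13 (r = 0.88), Acacb 14 (r = 0.88) and Scd1 17 (r = 0.87). Farther down, Mlxipl ranked 92 (r = 0.72), Thrsp 302 (r = 0.62) and Srebf1 3208 (r = 0.28). The 5 genes outside the list closest to Fasn were Dhcr7 (r = 0.95), a cholesterol synthesis enzyme, Acss2 (r = 0.94), which makes acetyl-CoA from acetate, Pnpla3 (r = 0.94), a lipid droplet protein, Chrna4 (r = 0.92), a nicotinic acetylcholine receptor subunit, and Pstpip2 (r = 0.91). All 5 were called lower in the Xist-low set, with log2 fold changes from -4.72 (Chrna4) to -1.11 (Pstpip2). The points share their library's scaling, and these ranks are a description.

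The regulators were correlated with the other members in a family of 17 pairs, with permutations within diet and set and Benjamini-Hochberg adjustment. For Mlxipl, 7 of its 8 pairs with the enzymes and Thrsp reached an adjusted p of at most 0.05, with r from 0.51 to 0.72 over the 8. For Srebf1, 1 of 9 did, the pair with Mlxipl. The share of all genes that correlate as closely with either regulator was not computed, so these counts have no background. Mlxipl and Fasn gave r = 0.72 (permutation p = 0.00031, adjusted 0.00298), while rho was 0.69 (permutation p = 0.00165, adjusted 0.0116). Leaving out the 2 libraries most distant from the median Mlxipl level gave r = 0.76. Within the 4 groups of 6 libraries r lay between 0.37 and 0.95 for this pair. Other Mlxipl pairs were uneven across the groups. With Elovl6 r was 0.97 and 0.96 in the Xist-high and Xist-low high-fat libraries and 0.078 and 0.40 in the control libraries, and with Me1 it was 0.89 and 0.90 against 0.041 and -0.076. Mlxipl and Thrsp, the pair that did not pass, gave 0.99 and 0.96 on the high-fat diet and -0.27 and -0.48 on the control diet. Whether r differs between the diets was not tested. Srebf1 and Fasn gave r = 0.28 (permutation p = 0.267, adjusted 0.350), while rho was 0.33 (permutation p = 0.159, adjusted 0.225). Leaving out the 2 most distant libraries gave r = 0.40. Within the groups it lay between -0.21, in the Xist-high control libraries, and 0.94, in the Xist-low high-fat libraries. Whether the correlations of the regulators differ from each other was not tested. Without control replicate 5, which had the lowest Srebf1 of all 24 libraries (199.97 CPM) and the highest Fasn of the control libraries (1298 CPM), 13 pairs passed, and r of Srebf1 and Fasn was 0.54, past the threshold. Without high-fat replicate 9, which had the lowest Mlxipl (139.9 CPM), 4 passed.

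**Figure D4:**
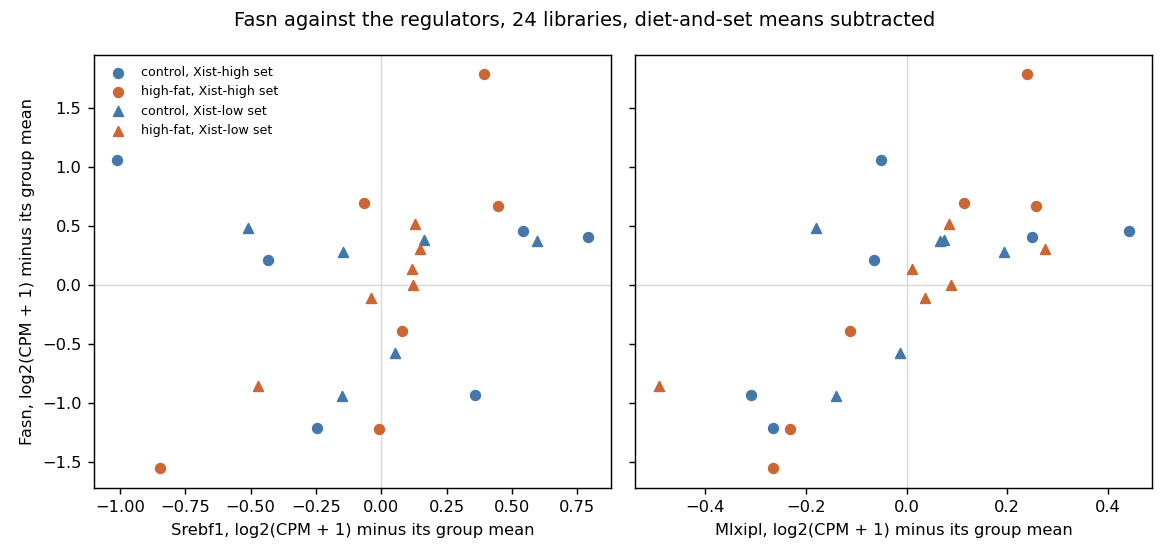
Fasn against Srebf1 and against Mlxipl, each as log2(CPM + 1) minus the mean of the library's diet and set, for 24 libraries. Points rise together for Mlxipl (r = 0.72) and scatter more for Srebf1 (r = 0.28).

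Other genes of the pathway, 74 in 7 lists of which 72 had enough counts to be tested, gave 2 higher and 13 lower calls over all 24 libraries, where 13.2% of all genes were called higher and 4.99% lower. The Xist-low libraries gave 3 higher and 20 lower, where 14.3% and 7.89% of all genes were. The Xist-high libraries gave 2 higher and none lower by edgeR, where 2.82% and 0.979% of all genes were. Up to 4 genes of a list were lower there at an unadjusted p under 0.05, as were 2457 of all 18071 genes. Of 14 genes of SREBP and LXR regulation, 2 were lower over all libraries and none was higher, with a median log2 fold change of -0.26. Scap, which escorts SREBPs out of the endoplasmic reticulum, fell from 189.8 ± 39.5 to 118 ± 23.9 CPM (SD, n = 12; log2 fold change -0.69, edgeR's adjusted p = 7.83e-05). Insig1, an SREBP target that retains SCAP there, fell from 188 ± 51.2 to 106 ± 62.1 CPM (log2 fold change -0.83, edgeR's adjusted p = 0.00591). Scap, Insig1 and Ppargc1b were lower in the Xist-low set. Srebf2, the cholesterol-directed family member, had a log2 fold change of -0.31 and Nr1h3, which encodes LXR alpha, -0.33, and neither was called.

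Of 8 genes that supply citrate and acetyl-CoA, Acss2 fell, from 293 ± 131 to 101 ± 82.8 CPM (SD, n = 12; log2 fold change -1.54, edgeR's adjusted p = 0.000801). In the Xist-low libraries it had 241 to 499.6 CPM on the control and 36.9 to 73.4 on the high-fat diet (log2 fold change -2.57, edgeR's adjusted p = 1.69e-06). Slc25a1, the mitochondrial citrate carrier, also fell in that set, with 297 to 452 CPM on the control and 165 to 224 on the high-fat diet (log2 fold change -0.79, edgeR's adjusted p = 0.000166). Among 6 genes of NADPH supply none was called over all libraries by edgeR (3 higher and 2 lower at an unadjusted p under 0.05), and 1, Idh1, was lower in the Xist-low set. At that unadjusted p, 4315 of all 17913 genes were higher and 4253 lower over all libraries. G6pdx, which opens the pentose phosphate pathway, had log2 fold changes of 0.80 (edgeR's adjusted p = 0.0245) in the Xist-low and -0.36 in the Xist-high libraries. Of 12 genes of glucose and fructose input, Gckr and G6pc were lower over all libraries and in the Xist-low set, where Txnip was higher. Pklr, the liver pyruvate kinase and a ChREBP target, was not called (log2 fold change -0.56, edgeR's adjusted p = 0.0394).

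In fatty acid desaturation, elongation and use, 11 of 13 listed genes were tested, since Scd3 and Scd4 had at most 33 and 8 counts. Scd2, another stearoyl-CoA desaturase, rose from 6.91 ± 2.53 to 31.4 ± 14.3 CPM (SD, n = 12; log2 fold change 2.18, edgeR's adjusted p = 1.82e-07). It rose in both sets, with log2 fold changes of 1.93 in the Xist-high and 2.46 in the Xist-low libraries. Scd2 resembles Scd1 in sequence, and how reads shared by both were counted is not given in the sources used here, so its values are uncertain. Fads1, Elovl2 and Acsl5, which act on polyunsaturated and long-chain fatty acids, were lower over all libraries, with log2 fold changes of -0.74, -0.78 and -0.54. Elovl3 and Pnpla3 were lower as well in the Xist-low set. Pnpla3 was at 1.22 to 5.41 CPM on the control and 0.127 to 0.921 on the high-fat diet there (log2 fold change -2.35, edgeR's adjusted p = 0.000506).

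**Figure D5:**
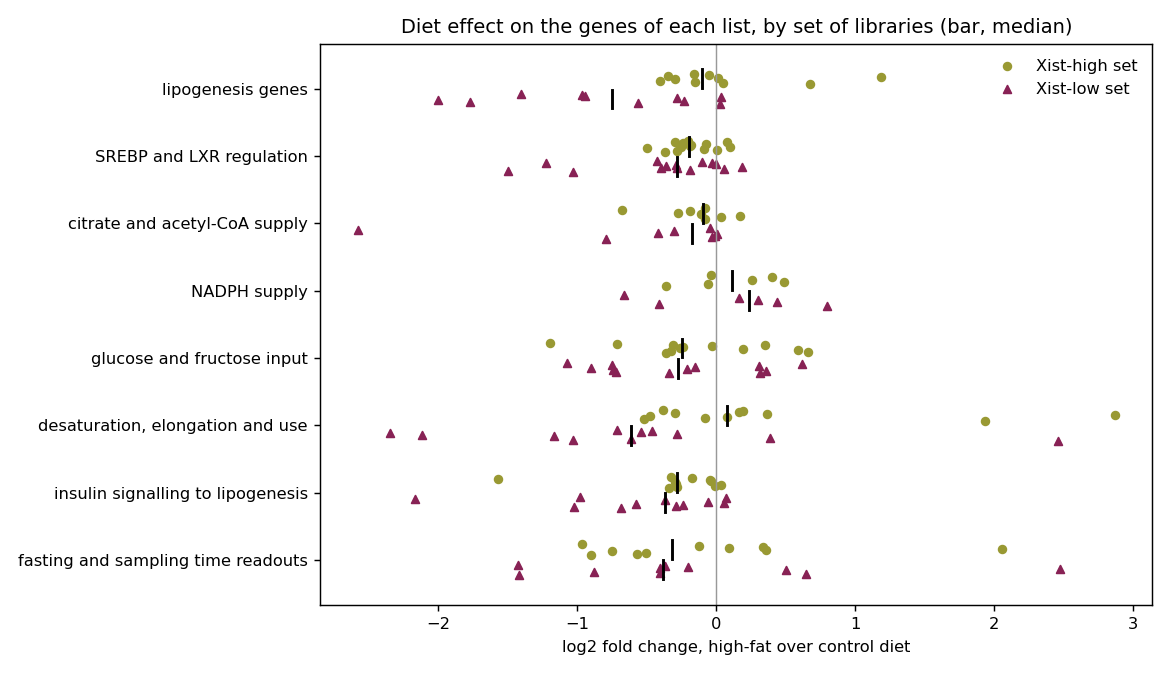
Log2 fold change, high-fat over control diet, of each tested gene among the 10 lipogenesis genes and the 7 lists, in the Xist-high and Xist-low libraries. The median of the lipogenesis genes lies at -0.10 and -0.75, and that of fatty acid desaturation, elongation and use at 0.08 and -0.61.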

How the data were processed

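Poly(A)-selected RNA of whole liver was sequenced in 24 libraries. The deposited table holds raw, whole-number counts for each Ensembl gene, as the authors made it. The submitters' processing notes name bcl2fastq, STAR 2.7.3a and mm10, while the study's methods name a pipeline, a counting program and an annotation for reads aligned to the human genome, and those used for this mouse table are not given in the sources used here. Symbols came from GENCODE M21, found for 51745 of 56205 IDs, and the other 4460 held 0.0723% of the counts. Tf is listed there as Trf.

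edgeR 4.0.16 in R 4.3.3 fitted a quasi-likelihood model with TMM scaling and diet as the term, after genes with a count in fewer than 12 libraries (6 within a set) were left out. TMM factors ran from 0.995 to 1.34 on the high-fat and from 0.679 to 1.01 on the control diet. Scripts were tested on simulated counts. Standard errors are the absolute log2 fold change over the square root of F. The 10 genes, the lists, the split at 1000 Xist counts and the alternatives were chosen with earlier results of these data known. Named are the 10 genes, up to 4 called genes per list with the largest change, Insig1, Srebf2, Nr1h3, Slc25a1, Acss2, G6pdx, Pklr, Scd2 and Pnpla3, the markers, Xist and the 5 genes most like Fasn. The result of another gene under this rule is not reported here. Other names (among them genes called within a set only) were chosen after their values were seen. Alternatives were DESeq2 1.42.0, limma-voom (limma 3.58.1), other scalings, filters and thresholds, a replicate block, the set as a covariate, and each library left out. No 2 libraries of a diet were alike within sampling noise (lowest chi-square per degree of freedom 17.0 on the control and 9.48 on the high-fat diet). Correlations used 100000 permutations.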

Additional observations from a re-analysis of the deposited data

Results flagged for a closer look

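The difference in diet effect between the sets of libraries (interaction of diet and set over 24 libraries, edgeR with Benjamini-Hochberg adjustment over all genes) had an adjusted p of at most 0.01 for 9 listed genes, none of them among the 10 lipogenesis genes. Listed were those 10, the pathway genes (72 tested) and the cell type markers. Of all 17913 genes tested, 4.06% reached that level. Elovl3, a fatty acid elongase, changed in opposite directions. In the Xist-high libraries it was at 0.792 to 1.98 CPM on the control and 6.72 to 13.6 on the high-fat diet, and in the Xist-low libraries at 75.9 to 183 and 17.1 to 36.7 CPM. The difference in log2 fold change was -5.01 (edgeR's adjusted p = 3.37e-09). Txnip, a known ChREBP target, had log2 fold changes of -0.71 in the Xist-high and 0.62 in the Xist-low libraries, a difference of 1.31 (edgeR's adjusted p = 0.00258).

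Among marker genes, the difference was -1.15 for Serpina1c (hepatocytes), 2.02 for Adgre1, 1.596 for Cd68 and 1.52 for Csf1r (macrophages), 3.06 for Epcam (cholangiocytes), and 3.62 for Cd8a and 1.52 for Ptprc (T cells and leukocytes). Cd8a had only 0 to 7 counts in the Xist-low control libraries. It had 85 in Xist-high control replicate 6, where no other Xist-high control library exceeded 15. Epcam had 1376 counts in high-fat replicate 9, where no other Xist-low high-fat library exceeded 333. What sets the libraries apart beyond Xist was not tested.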

How the results depend on the processing

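With library totals alone the median log2 fold change of all genes moved from -0.03 to 0.26 and the share of higher calls from 72.6% to 94.4% (3827 higher and 226 lower genes). Of the 10 genes, 1 was then called higher, Srebf1 (0.64), and Mlxipl (0.026) and Fasn (0.13) changed sign, both below that median. In the Xist-low set the median of all genes moved from -0.03 to 0.42 and the share of higher calls from 64.5% to 92.8%, 2 of the 10 genes were called lower, and Acaca (0.17) and Fasn (0.11) changed sign, as did Me1 in the Xist-high set (0.085).

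Of the 10 genes, 2 were called lower over all libraries with DESeq2, 2 with limma-voom, 1 with the set as a covariate (Acacb), 4 with an adjusted p up to 0.05, and 6 in the Xist-low libraries alone. DESeq2 gave 1 gene with a difference between sets (Acacb). Over all genes, 1230 were higher with at least 10 counts in every library, 3709 higher and 3388 lower with an adjusted p up to 0.05, 216 lower at a log2 fold change over 1, 509 higher and 177 lower in the Xist-high libraries alone, and 1430 lower in the Xist-low libraries alone. In the Xist-low set Elovl6 was lost with limma-voom, and Elovl6 and Mlxipl with at least 10 counts in every library. Mlxipl (0.050) and Fasn (0.014) were above 0 in the Xist-high libraries alone, where Fasn was -0.23 with limma-voom. The cause of these moves was not tested.

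With each library left out in turn, the lower calls among the 10 genes ran from 0 to 4 over all libraries and from 4 to 6 in the Xist-low set, and the correlated pairs from 4 to 13. Values that changed sign were Fasn over all libraries (-0.40 to 0.00196), Fasn (-0.49 to 0.28), Acly (-0.66 to 0.057), Me1 (-0.27 to 0.15) and Thrsp (-0.33 to 0.050) in the Xist-high set, Srebf1 (-0.065 to 0.18) and Scd1 (-0.11 to 0.19) in the Xist-low set, the difference between sets for Acaca (-0.024 to 0.40) and Fasn (-0.58 to 0.20), and the correlation of Srebf1 with Me1 (-0.17 to 0.34) and Thrsp (-0.021 to 0.35).

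Replicate numbers are shared across diets, but deviations of same-numbered libraries correlated between -0.0935 and 0.541, and 2 of the 12 numbers were their own best partner, so no pairing was assumed. Under the replicate block, 2 of the 10 genes were called lower over all libraries (Acly, -1.15, and Acacb, -1.23) and 5 in the Xist-low set (not Mlxipl), and Fasn in the Xist-high set was -0.34.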

Other observations

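Insulin signalling and genes that follow feeding and the time of day were read beside the lipogenesis genes, because the labels give neither the feeding state nor the hour of sampling. Of 11 genes of insulin signalling, 2 were lower over all libraries and none was higher, with a median log2 fold change of -0.21. Of all genes, 4.99% were called lower and 13.2% higher. Lpin1, a phosphatidate phosphatase, had a mean of 375 CPM on the control and 110.5 on the high-fat diet (log2 fold change -1.76, standard error 0.51, edgeR's adjusted p = 0.00795). Its values overlapped widely, from 34.9 to 1193 CPM on the control and from 23.9 to 473 on the high-fat diet. Prkaa2, a catalytic subunit of AMPK, also fell (log2 fold change -0.65, edgeR's adjusted p = 0.000904). Insr (-0.69) and Foxo1 (-0.58) were lower as well in the Xist-low set.

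Of 10 genes that respond to fasting or the hour, 1 was higher and 3 were lower over all libraries, where 13.2% and 4.99% of all genes were. Pck1, the gluconeogenic enzyme, fell from a mean of 2965 to 1368 CPM (log2 fold change -1.12, edgeR's adjusted p = 0.000165), and Ppargc1a (-0.80) and the clock gene Ciart (-1.16) fell with it. Npas2, another clock gene, rose (2.22), at mean levels of only 0.134 CPM on the control and 0.635 on the high-fat diet. Dbp and Nr1d1, which swing widely over the day, had log2 fold changes of -0.15 and 0.06 (edgeR's adjusted p = 0.33 and 0.749). The part of feeding state or hour in the levels of the lipogenesis genes was not tested.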
